A study of Mus musculus with 2 samples.

Results

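Non-dividing plasma cells were identified among immune cells sorted from melanoma-bearing mouse lungs, by counting unique molecular identifiers (UMIs, which mark single captured RNA molecules) of a few genes in each cell barcode. A barcode was a member with at least 10 UMIs of Mzb1, Xbp1 and Derl3 together, at least 1 of Jchain, none of the T cell genes Cd3d, Cd3e, Cd3g and Trac, none of Siglech or C1qa, and none of the division genes Mki67 and Top2a. Members were then grouped by the immunoglobulin heavy constant gene with most UMIs. The rule found 132 members among 20364 kept barcodes, 64 of 10313 in the C435A tumour library and 68 of 10051 in the WT tumour library.

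The study injected C57 mice with B16F10, a mouse melanoma line, and compared tumour cells with wild-type IRF7 against tumour cells with the IRF7-C435A mutant, a form in which a cysteine of this interferon-inducing transcription factor is replaced. The genotype is that of the tumour cells, so the plasma cells of both libraries came from hosts for which no genotype is given. Lung metastasis tissue was digested and live cells, positive for CD45 and negative for the dye 7-AAD, were sorted. Each group has 1 library, the labels state neither the number of mice behind it nor their age, and the labelled cell type, melanoma cell, does not match a CD45 sort. With 1 library per group no test was made: intervals cover counting error only, and no difference between the libraries has a replicate check.

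Plasma cells are the end stage of the B cell lineage and release antibody at a high rate. Xbp1 and Prdm1 encode transcription factors of that stage, Derl3 and Mzb1 encode endoplasmic reticulum (ER) proteins, Sdc1 encodes the surface marker CD138, and Jchain encodes the chain that joins IgA or IgM units into polymers. The large flow of new protein through the ER is handled by chaperones, whose genes are turned on by the unfolded protein response. In lung and other mucosal tissue IgA is the class that is carried across the epithelium, while IgG is the main class of serum.

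Genes that differed between plasma cells of different antibody class included several ER chaperones. The upstream sequences of 4 chaperone genes that were lower in IgA than in IgG plasma cells of both libraries are shown because each holds the ER stress response element, a motif of CCAAT, 9 bases of any kind and CCACG, through which unfolded protein response factors are known to act. They are the 250 bases before the start of the gene, written 5′ to 3′ on the strand of the gene from RefSeq promoters (build GRCm38.p6), and capitals mark the motif on either strand. Creld2 lies at chr15:88819396-88819645 (plus strand), Ero1b at chr13:12565633-12565882 (plus strand), Hspa5 at chr2:34771840-34772089 (plus strand) and Hsp90b1 at chr10:86705445-86705694 (minus strand).
Creld2: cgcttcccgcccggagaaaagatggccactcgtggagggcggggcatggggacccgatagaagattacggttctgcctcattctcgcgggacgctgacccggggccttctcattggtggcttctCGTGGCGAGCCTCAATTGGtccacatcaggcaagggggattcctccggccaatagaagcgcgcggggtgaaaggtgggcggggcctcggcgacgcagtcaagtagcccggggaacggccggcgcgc
Ero1b: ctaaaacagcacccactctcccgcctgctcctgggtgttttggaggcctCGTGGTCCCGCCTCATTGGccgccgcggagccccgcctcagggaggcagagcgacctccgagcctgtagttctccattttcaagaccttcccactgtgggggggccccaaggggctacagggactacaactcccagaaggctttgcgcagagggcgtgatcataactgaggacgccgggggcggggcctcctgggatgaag
Hspa5: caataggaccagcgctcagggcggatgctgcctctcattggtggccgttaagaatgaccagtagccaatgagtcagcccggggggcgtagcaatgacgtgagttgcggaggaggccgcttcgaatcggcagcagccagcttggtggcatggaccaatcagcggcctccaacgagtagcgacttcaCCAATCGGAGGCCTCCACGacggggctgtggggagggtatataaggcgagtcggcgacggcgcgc
Hsp90b1: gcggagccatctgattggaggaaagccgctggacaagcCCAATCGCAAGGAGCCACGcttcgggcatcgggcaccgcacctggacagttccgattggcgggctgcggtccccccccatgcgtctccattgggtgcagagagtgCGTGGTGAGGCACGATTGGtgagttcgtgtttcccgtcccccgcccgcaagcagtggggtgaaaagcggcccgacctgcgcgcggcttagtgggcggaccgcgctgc
The motif begins at position -126 from the gene start in Creld2, -201 in Ero1b and -65 in Hspa5, and Hsp90b1 holds it at -212 and again at -107. Searched on both strands of windows that run from 250 bases before to 50 after the start, it occurred in 39 of 32851 mouse promoters (0.119%). Among the 31 of the listed ER chaperone genes that matched the table it occurred in 9, which were Hspa5, Hsp90b1, Calr, Canx, Pdia6, Dnajc3, Creld2, Ero1b and Syvn1. A match is a description of the sequence, not a measured site.

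The rule was checked against the markers first. Mzb1 was nearly absent, with 9 and 17 UMIs in all over the 113 cells described below (the first value of a pair is always the C435A tumour library) and at most 2 in any cell, so membership rested on Xbp1 and Derl3. Of the 132 members 11 went against the label, 3 and 8. They held 1 to 2 Jchain UMIs, 5 to 50 immunoglobulin UMIs and 231 to 1556 UMIs of Lyz2, the lysozyme gene of macrophages, and Derl3 was at 0 in 3 of 3 and 7 of 8 of them. Another 8 members, 4 and 4, were rich in immunoglobulin and also held 44 to 977 Lyz2 UMIs. Scrublet, which scores likely doublets, marked 2 and 3 of the members. No member barcode was shared between the libraries, while 24 of the other kept barcodes were.

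The remaining 113 cells, 57 and 56, held at least 10 Jchain UMIs and under 20 Lyz2 UMIs, a restriction chosen after the values were seen. Jchain ran from 69 to 1619 and from 110 to 1990 UMIs in them and Lyz2 reached 4 and 8. Scrublet marked none of them. Results below are for these cells unless all 132 are named.

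**Figure D1:**
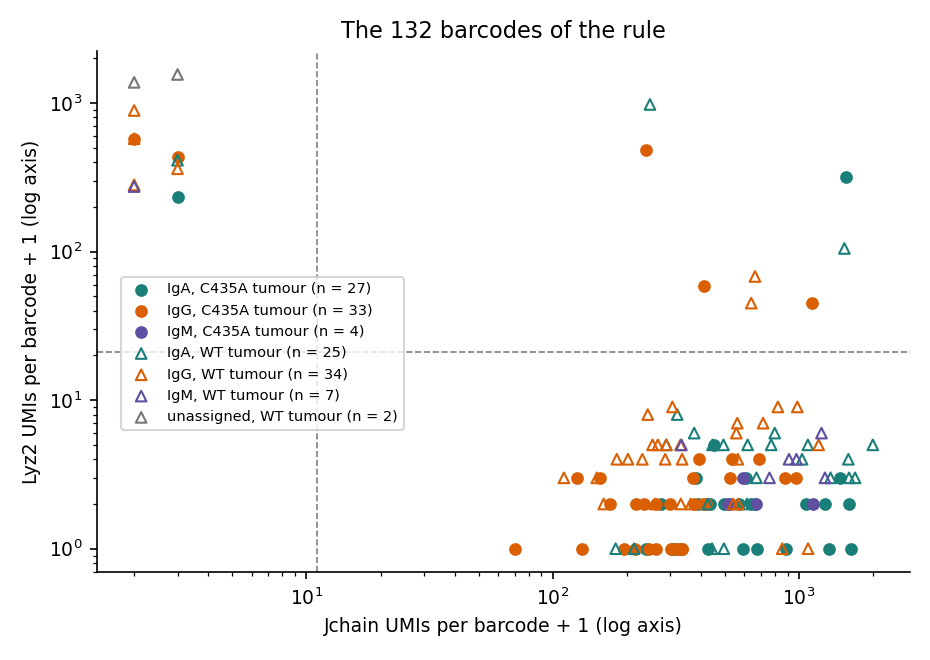
Jchain UMIs (x axis, log scale) against Lyz2 UMIs (y axis, log scale), each plus 1, for the 132 barcodes of the rule, 1 point each, coloured by antibody class and shaped by library. Dashed lines lie at 10 Jchain and 20 Lyz2 UMIs: 113 cells sit at the lower right, 11 barcodes with almost no Jchain at the upper left and 8 with both at the upper right.

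The markers of the rule are given as a description. Xbp1 had a median of 19 UMIs per cell (3 to 94) and 22.5 (6 to 122), and Derl3 a median of 4 (0 to 35) and 5.5 (0 to 49). Of the markers the rule did not use, Sdc1 had a UMI in 42 of 57 and 44 of 56 cells with a median of 1 and 2 UMIs, and Prdm1 in 24 of 57 and 27 of 56. At the threshold of the rule, 4 and 6 members had a marker sum of 10 or 11, of which 3 and 1 had at least 10 Jchain UMIs. Just outside, 8 and 12 barcodes had a sum of 8 or 9, and 1 and 1 of them had at least 10 Jchain UMIs.

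The cells were deep and immunoglobulin took much of their RNA. They held a median of 12595 UMIs (2093 to 29095) and 15611 UMIs (7490 to 32588), against 1984 and 1873 in B cells and 3924.5 and 2850 in T cells. Genes of the immunoglobulin loci made up a median of 51.2% and 55.9% of each cell's UMIs, and mitochondrial genes 0.637% and 0.623%. Igkc, the kappa light chain constant gene, averaged 4942 and 6228 UMIs per plasma cell and 2.34 and 2.37 per T cell. The T cell value can hold RNA free of its cell of origin as well as doublets, which were not told apart. Because of the immunoglobulin load of plasma cells, other genes are compared by their share of the UMIs outside the immunoglobulin genes, scaled to 1e6 and written as CPM.

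Markers of other cell types were low in the 113 cells. The 4 T cell genes were at 0 by the rule, and the list of 15 T and NK cell genes summed to 110 and 40 UMIs (0 to 13 and 0 to 3 per cell, 9 and 9 genes above 0), of which Ccl5 gave 59 and 17. The 15 monocyte and macrophage genes summed to 135 and 306 UMIs (0 to 7 and 0 to 17 per cell), with C1qa and Ms4a7 at 0 in both. The 10 neutrophil genes summed to 20 and 65 UMIs (0 to 2 and 0 to 4 per cell), the 8 melanoma genes to 19 and 53, and the 10 lung epithelium and stroma genes to 116 and 123. The macrophage, neutrophil and melanoma lists were thus higher in the WT tumour library and the T and NK list in the C435A tumour library, and their part in the differences between libraries was not tested. In the lung list only 2 and 3 genes were above 0. Epcam of that list and Ly6i of the monocyte list were higher in the 113 cells than in B cells, while Pecam1 and 6 monocyte genes were lower. The sums of these 2 lists therefore cannot be read as RNA of other cells alone.

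Against B cells of the same libraries, a contrast the rule itself drew and therefore only a description, 10% of 9333 genes were higher and 16.8% lower past 1.5-fold in both libraries with counting intervals that exclude no change. All 35 measured ER chaperone genes were higher, with medians of 3.23 and 3.28 on the log2 scale, as were 24 of 24 genes of ER to Golgi transport and 23 of 24 of the translocon. All 18 B cell identity genes were lower, with medians of -4.96 and -5.02, and so were the 10 genes of MHC class II presentation, with medians of -4.37 and -4.05. The B cells were picked by UMIs of Cd79a, Cd79b and Ms4a1, which are among the 18, and by having no Jchain UMI. Tnfrsf17, which encodes the survival receptor BCMA, was 9.89 and 9.59 log2 units higher than in B cells.

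Plasma cells took a small share of each library, and the difference between the libraries depended on which barcodes were left out. By the rule they made up 0.621% of kept barcodes in the C435A tumour library (exact 95% interval 0.478% to 0.792%) and 0.677% in the WT tumour library (0.526% to 0.857%), a difference of -0.056 percentage points (Newcombe interval -0.281 to 0.167). The 113 cells made up 0.553% and 0.557%, a difference of -0.00446 points (-0.212 to 0.202). When members with at least 5 UMIs of any list of other cells were left out, 45 (0.436%) and 23 (0.229%) remained, a difference of 0.208 points (0.0488 to 0.373), with the sign turned and the interval excluding 0. Only plasma cells were left out there, and the totals stayed at 10313 and 10051 kept barcodes. The 15 monocyte and macrophage genes had a median of 2 and 5 UMIs in the 113 cells. For that list the limit of 5 thus lay at the median of the WT tumour library, and more cells of this library were left out. The lung list reached 9 and 10 UMIs per cell and the T and NK list 13 and 3. Epcam and Ly6i on these lists were higher in plasma cells than in B cells, so the limit can leave out plasma cells on their own RNA. The part of each list was not counted. Cycling plasmablasts, which meet the same rule except that Mki67 or Top2a was detected, made up 1.18% and 0.716%, a difference of 0.467 points (0.201 to 0.738). The non-dividing cells were therefore a smaller part of the plasma lineage in the C435A tumour library, 57 of 171 (33.3%, 26.3% to 40.9%) against 56 of 119 (47.1%, 37.8% to 56.4%) when both kinds were held to the Jchain and Lyz2 limits. That difference was -13.7 points (-24.8 to -2.30), and by the rule alone it was -14.2 points (-24.6 to -3.38). Division was read from any UMI of 2 genes, so a cell with few UMIs can be counted as non-dividing.

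IgA and IgG cells made up most of the plasma cells, in like proportions in both libraries. Igha led in 25 of 57 cells (43.9%, 30.7% to 57.6%) and 22 of 56 (39.3%, 26.5% to 53.2%), a difference of 4.57 points (-13.2 to 22). An IgG gene led in 28 of 57 (49.1%) and 28 of 56 (50%), a difference of -0.88 points (-18.7 to 17.0), and Ighm in 4 (7.02%) and 6 (10.7%). Among the IgG genes Ighg2c led in 15 and 15 cells, Ighg2b in 9 and 7, Ighg1 in 4 and 3, and Ighg3 in 0 and 3. Ighd and Ighe led in 0 of 57 and 0 of 56 cells, which allows shares of up to 5.26% and 5.36% at 3 counts of the total, and the exact intervals reach 6.27% and 6.38%. The call was clear in nearly every cell: the leading gene held a median of 99.8% and 99.7% of heavy constant UMIs. Over all 132 members the counts were 27 and 25 IgA, 33 and 34 IgG, 4 and 7 IgM, and 2 members of the WT tumour library without a class. The heavy constant genes lie together on chromosome 12, from Igha (chr12:113254830-113260236) to Ighm (chr12:113418558-113422730) in GRCm38.

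**Figure D2:**
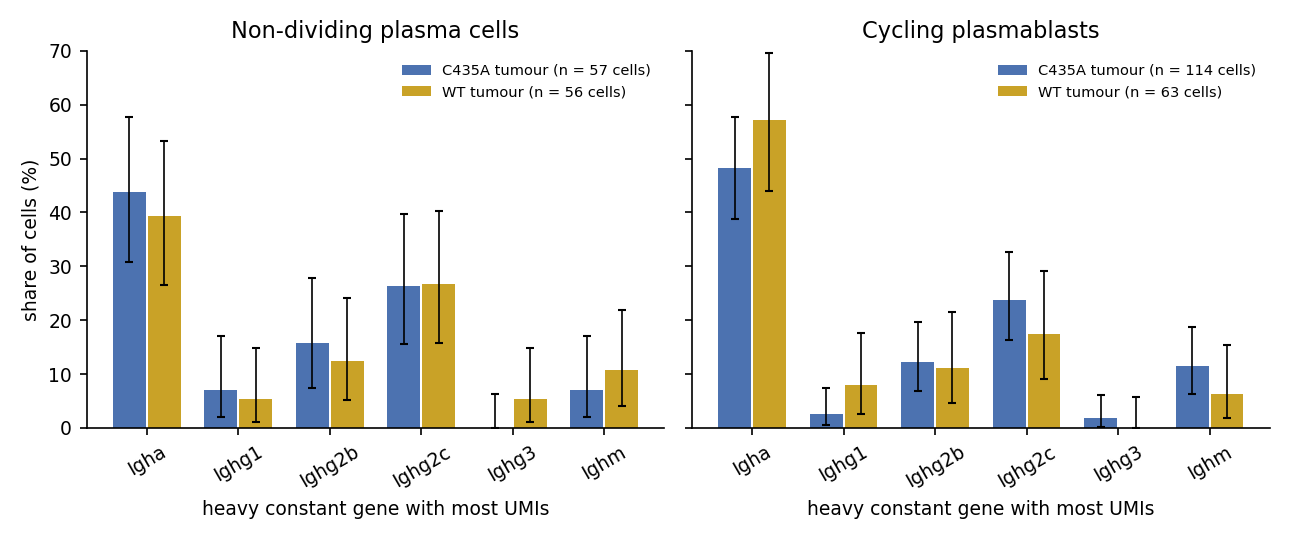
Share of cells (y axis, percent) by the heavy constant gene with most UMIs (x axis) for non-dividing plasma cells (57 and 56) and cycling plasmablasts (114 and 63), with exact 95% intervals for counting error. Igha is the commonest gene in both kinds of cell and both libraries, at 43.9% and 39.3% of the non-dividing cells.

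IgA and IgG plasma cells differed in single genes of survival, homing and protein folding, among them Tnfrsf17, Ccr10 and Txndc5, which were higher in IgA cells, and Slpi, Creld2 and Hspa5, which were higher in IgG cells. Within each library UMIs were summed over the IgA and over the IgG cells, and a gene counted as higher or lower when it passed 1.5-fold with its interval excluding 0 in both libraries, so that a shared direction is part of the definition. This contrast was chosen after the data were seen, and its intervals treat UMIs rather than cells as the unit. Of 2048 genes with at least 20 UMIs in each library, 50 (2.44%) were higher and 64 (3.12%) lower in IgA cells, and scaling to all UMIs turned these into 77 and 46. Over all 132 members the counts were 41 (1.38%) and 58 (1.95%) of 2972 genes. Depth was alike: IgA cells held a median of 6196 and 6839.5 UMIs outside immunoglobulin genes and IgG cells 5554 and 7205.5.

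**Figure D3:**
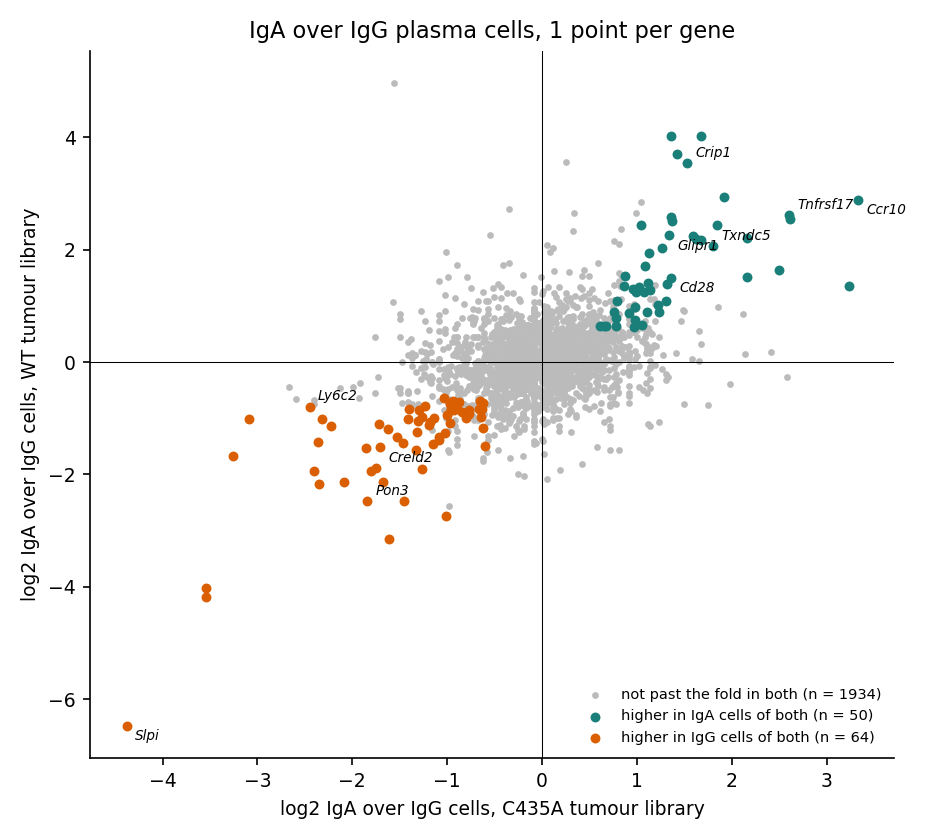
Log2 ratio of IgA over IgG plasma cells in the C435A tumour library (x axis) and in the WT tumour library (y axis), 1 point per gene, for 2048 genes. Coloured points are the 50 genes higher and the 64 lower past 1.5-fold in both libraries, and Slpi lies farthest out at -4.37 and -6.47. A count of 0 was set to 3 UMIs.

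Slpi, which encodes the secretory leukocyte peptidase inhibitor, an antiprotease of mucosal fluids and granulocytes (chr2:164354070-164389095), gave the largest difference among the named genes. IgG cells held 6801 Slpi UMIs against 348 in IgA cells of the C435A tumour library, and 11917 against 99 in the WT tumour library. On the log2 scale IgA over IgG was -4.37 (-4.53 to -4.22) and -6.47 (-6.77 to -6.18), that is 20.7-fold and 88.6-fold higher in IgG cells. Per cell, IgG cells ran from 0 to 1784 UMIs with a median of 14 and from 0 to 2643 with a median of 176, while IgA cells ran from 0 to 90 (median 0) and from 0 to 30 (median 1). The groups overlap at the low end, since only 20 of 28 and 26 of 28 IgG cells had a Slpi UMI, and 1 IgG cell gave 26.2% and 22.2% of the IgG total. At least 10 UMIs were found in 16 of 28 and 23 of 28 IgG cells, 8 of 25 and 3 of 22 IgA cells, and 2 of 4 and 0 of 6 IgM cells. With every cell thinned to 1000 UMIs outside immunoglobulin genes, the mean share with a Slpi UMI was 59.8% and 85.6% of IgG cells, 33.4% and 30.1% of IgA cells, and 2.75% and 4.01% of T cells. Among the other cell groups neutrophils held the highest Slpi level. The 10 neutrophil genes summed to 20 and 65 UMIs over the 113 cells, and their part in the Slpi difference was not tested.

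The survival receptor genes Tnfrsf17 and Cd28 were higher in IgA cells. Tnfrsf17 (chr16:11313812-11320074) summed to 226 UMIs in IgA and 35 in IgG cells of the C435A tumour library and to 108 and 24 in the WT tumour library, log2 ratios of 2.60 (2.09 to 3.16) and 2.61 (1.96 to 3.32). It had a UMI in 25 of 25 and 20 of 22 IgA cells, against 7 of 28 and 8 of 28 IgG cells. The IgG cells that had it were mostly Ighg2c cells, 7 of 15 and 6 of 15, against 0 of 9 and 1 of 7 Ighg2b cells. After thinning, the share was 63.8% and 46% of IgA cells, 11.2% and 7.84% of IgG cells and 0.0444% and 0.0109% of T cells. Cd28, a costimulatory receptor that long-lived plasma cells use, was 1.36 and 1.5 higher, with a UMI in 23 of 25 and 21 of 22 IgA cells and 12 of 28 and 12 of 28 IgG cells. Bcl2l11, which encodes the death-promoting protein BIM, was lower in IgA cells at -1.09 and -1.39. Of the 13 measured survival genes, 2 were higher and 1 lower, with medians of -0.29 and 0.13 against -0.02 and 0.04 over all genes. Among all genes tested 2.44% were higher and 3.12% lower.

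Among homing receptors, Ccr10 and Itgb7 were higher in IgA cells. CCR10 is the receptor for a chemokine of mucosal epithelium, and Itgb7 encodes the integrin chain that directs cells to gut and other mucosa. Ccr10 (chr11:101172997-101175443) summed to 64 against 6 UMIs and 60 against 11, log2 ratios of 3.33 (2.13 to 4.83) and 2.89 (1.95 to 3.97), and 81.8% of the WT IgG UMIs came from 1 cell. It had a UMI in 19 of 25 and 17 of 22 IgA cells and in 3 of 28 and 2 of 28 IgG cells. The thinned shares were 27.4% and 30.1% of IgA cells, 4.03% and 3.69% of IgG cells and 0.164% and 0.121% of T cells. Itgb7 was 1.36 and 2.59 higher, with 68 against 25 and 53 against 12 UMIs. Ly6c2, a surface protein gene on the same list, was lower in IgA cells at -2.45 and -0.79, so that 2 of the 10 measured homing genes were higher and 1 lower. Among all genes tested 2.44% were higher and 3.12% lower.

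The ER genes split. Txndc5, a protein disulfide isomerase family member, was higher in IgA cells, with 661 against 178 and 679 against 220 UMIs and log2 ratios of 1.81 (1.57 to 2.05) and 2.07 (1.85 to 2.29). Its median was 24 (15 to 56) and 31 (7 to 99) UMIs per IgA cell against 2.5 (0 to 22) and 4.5 (0 to 27) per IgG cell, and IgM cells lay with the IgA cells at 38 (21 to 74) and 30.5 (12 to 39). Lower in IgA cells were 7 ER chaperone genes: Hspa5, Hsp90b1, Sdf2l1, Creld2, Ero1b, Sel1l and Prdx4. The list of 34 measured genes had 1 higher and 7 lower, with medians of -0.48 and -0.36 against -0.02 and 0.04 over all genes, of which 2.44% were higher and 3.12% lower.

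Creld2, a disulfide isomerase of the ER, summed to 129 against 398 UMIs and 101 against 392, log2 ratios of -1.71 (-2.01 to -1.42) and -1.51 (-1.84 to -1.20). Its medians were 2 and 3 UMIs in IgA cells and 9 and 9.5 in IgG cells, with overlapping ranges of 0 to 27 and 0 to 19 against 0 to 73 and 2 to 63. Hspa5, the chaperone BiP that holds the stress sensors of the ER, summed to 405 against 934 and 506 against 1236, log2 ratios of -1.29 (-1.46 to -1.12) and -0.85 (-1.0 to -0.70). Its level differed among the IgG genes. The 15 WT Ighg2c cells were at 1980 CPM with at least 10 Txndc5 UMIs and at 4730 with fewer. WT IgA cells with at least 10 were at 3181. Hsp90b1, which encodes the chaperone GRP94, was at -0.96 and -0.83, Ero1b, an oxidase that renews disulfide isomerases, at -1.26 and -1.90, and Sel1l, part of the ER degradation complex, at -1.03 and -1.26. These include the 4 genes whose upstream sequences are shown above, and 4 of the 9 listed genes with the motif passed. Of the other 5, Pdia6 was at -0.48 and -0.57, Dnajc3 at -0.66 and -0.39, Syvn1 at -0.71 and -0.27, Calr at -0.17 and -0.28, and Canx at 0.08 and 0.08. The part of the motif in the differences was not tested. Xbp1 itself was at 0.17 and -0.10. In the other secretory lists 0 of 24 genes of ER to Golgi transport passed, 1 of 23 translocon genes was lower (Ssr4, -0.87 and -0.71), and 1 of 14 glycosylation genes was higher (St6gal1, a sialyltransferase, 0.96 and 1.30).

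**Figure D4:**
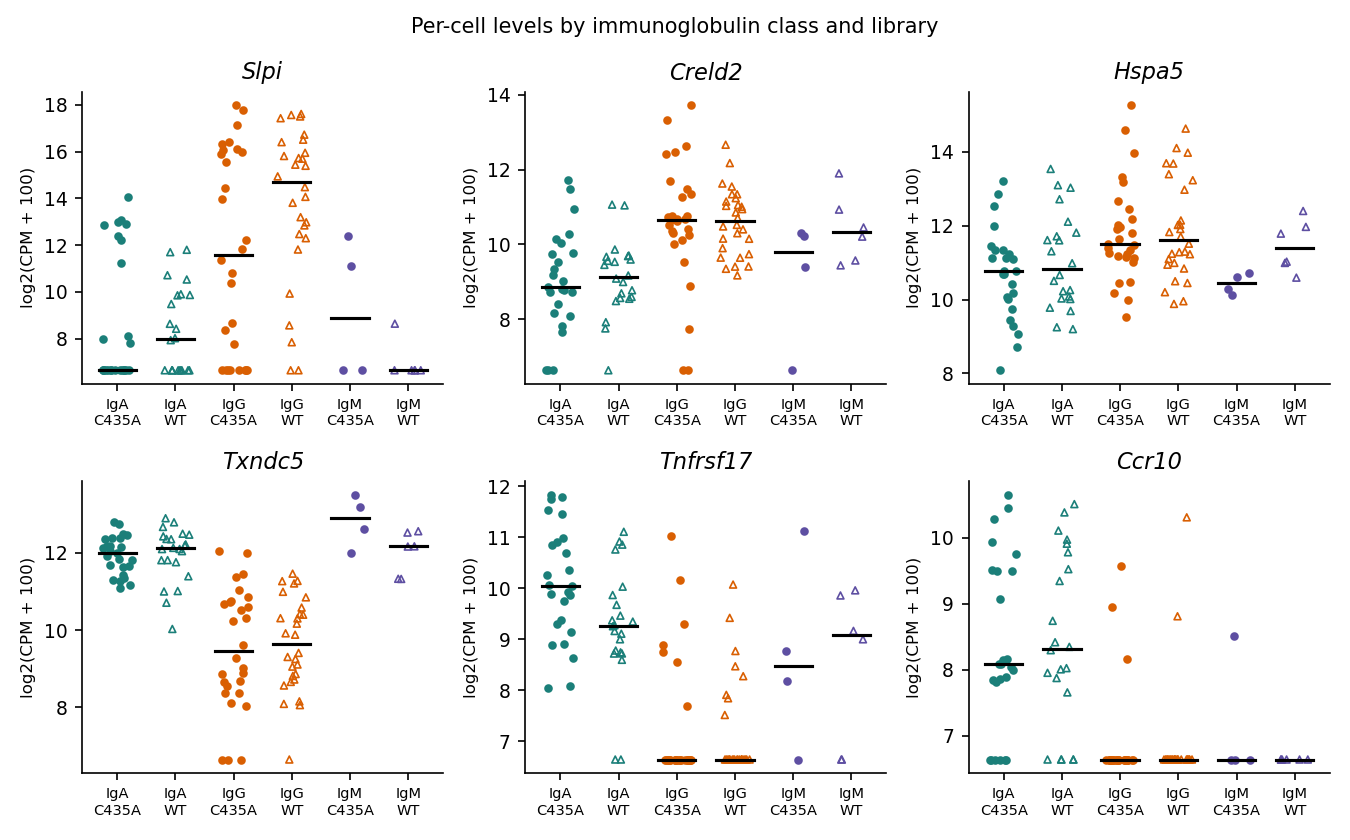
Level per cell, as log2 of CPM outside immunoglobulin genes plus 100 (y axis), by antibody class and library (x axis) for 6 genes, 1 point per cell, with bars at the median. Slpi, Creld2 and Hspa5 are higher in IgG cells and Txndc5, Tnfrsf17 and Ccr10 in IgA cells, with IgM cells (4 and 6) at the IgA level for Txndc5.

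Some members of further gene lists were lower in IgA cells, where 3.12% of all genes tested were. Of 20 heat shock and immediate early genes, 6 were lower and 0 higher (medians -0.40 and -0.95): the transcription factor genes Fos at -0.60 and -1.49, Fosb at -1.01 and -2.74 and Jun at -1.41 and -0.84, the antiproliferative gene Btg2 at -1.19 and -1.12, and the heat shock genes Hspa1b and Dnajb1. These genes are also known to respond to tissue digestion, whose part was not tested. Of 9 type I interferon response genes, 4 were lower and 0 higher (medians -1.09 and -0.55), among them Zbp1 at -1.46 and -1.43, Isg20 at -0.93 and -0.86 and Ly6a at -1.32 and -1.25, which did not pass when the deepest 5% of cells were left out. Irf7 had only 9 and 9 UMIs over all 113 cells. Of 13 MHC class I genes, 3 were lower: H2-Q7 at -1.27 and -0.98 and the immunoproteasome genes Psmb8 at -0.96 and -0.85 and Psmb9 at -0.85 and -0.89. Of the 9 interferon gamma genes the 2 lower were again Psmb8 and Psmb9.

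Jchain was higher in IgA cells at 0.76 and 0.90, with medians of 568 and 615 UMIs per cell against 307 and 329.5. Irf4, a transcription factor of plasma cell formation, was at 0.87 and 1.35, while the marker Sdc1 was at 0.21 and 0.07. Of 6 measured genes listed for B-1 cells, the innate-like B cell lineage, 2 were higher and 0 lower: Anxa2, an annexin, at 1.42 and 3.71, and Itgam, which encodes CD11b, at 1.68 and 4.03, with at most 24 Itgam UMIs in any group. Among all genes tested 2.44% were higher and 3.12% lower. Other named genes higher in IgA cells were Atp1b1, a sodium pump subunit, at 2.61 and 2.55, Gvin-ps7 at 1.91 and 2.93, Smchd1, a chromatin silencing gene, at 1.62 and 2.19, Glipr1 at 1.34 and 2.26, and Crip1 at 1.53 and 3.53. One cell gave 64.3% of the Crip1 UMIs of WT IgA cells and 62.5% of those of C435A IgG cells. Other named genes lower in IgA cells were Oosp1, with 5 against 55 and 0 against 74 UMIs (11.7-fold and at least 18.2-fold higher in IgG cells), Pld4, with 2 against 22 and 1 against 22, Pon3 at -1.84 and -2.48, Dnajb1 at -2.41 and -1.94, and Dnajc7 at -1.86 and -1.52.

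The same contrast was measured in the cycling plasmablasts, which the rule left out and which share the libraries but no cells. There 83 of 4759 genes (1.74%) were higher and 67 (1.41%) lower in IgA cells. Of the 50 genes higher in non-dividing IgA cells 20 passed in the cycling cells, and of the 64 lower genes 27 passed. The median ratios of these 2 sets in cycling cells were 0.72 and 0.71 for the higher and -0.80 and -0.67 for the lower genes. Over all genes tested there the medians were 0.02 and -0.04. In both libraries 43 of the 50 and 50 of the 64 had the same sign, but no such share was computed over all genes. Slpi was at -4.95 and -4.24, Tnfrsf17 at 2.62 and 2.20, Ccr10 at 2.49 and 3.93 and Txndc5 at 0.82 and 1.89. The ER chaperones did not follow: 1 of 35 was higher (Txndc5) and 1 lower (Ero1b), with medians of 0.08 and 0.00, Creld2 was at -0.33 and -0.29, and Hspa5 was at 0.51 and 0.27, opposite in sign to the non-dividing cells. No test of the difference between the 2 kinds of cell was made.

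Slpi and Txndc5 varied among the IgG cells, without a clean division. At a limit of 10 UMIs for each gene, chosen after the values were seen, 13 of 28 and 16 of 28 IgG cells had Slpi without Txndc5, against 0 of 25 and 0 of 22 IgA cells and 0 of 4 and 0 of 6 IgM cells. Both genes reached the limit in 3 and 7 IgG cells, Txndc5 alone in 6 and 4, and neither in 6 and 1. Txndc5 reached it in 25 of 25 and 20 of 22 IgA cells and in 4 of 4 and 6 of 6 IgM cells. Almost none of those could therefore count as Slpi without Txndc5. Among cycling plasmablasts Slpi without Txndc5 was found in 18 of 46 and 11 of 23 IgG cells, 0 of 55 and 0 of 36 IgA cells, and 0 of 13 and 0 of 4 IgM cells. Txndc5 reached the limit in 9 and 11 IgG cells, of which 9 and 7 were Ighg2c cells. Those cells held 34 of the 35 and 22 of the 24 Tnfrsf17 UMIs of IgG cells. They had a median Slpi of 0 and 69 UMIs against 74 and 186 in the other IgG cells, and their Creld2 level was 1011.5 and 1300.9 CPM against 3465 and 2278. In cycling IgG cells Creld2 was at 1203 CPM with Txndc5 against 1140 without in the C435A tumour library, and at 557 against 1927 in the WT tumour library. The limit is applied to raw UMIs, and cells with Txndc5 were deeper, with a median of 7567 and 8365 UMIs outside immunoglobulin genes against 5126 and 6641.

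**Figure D5:**
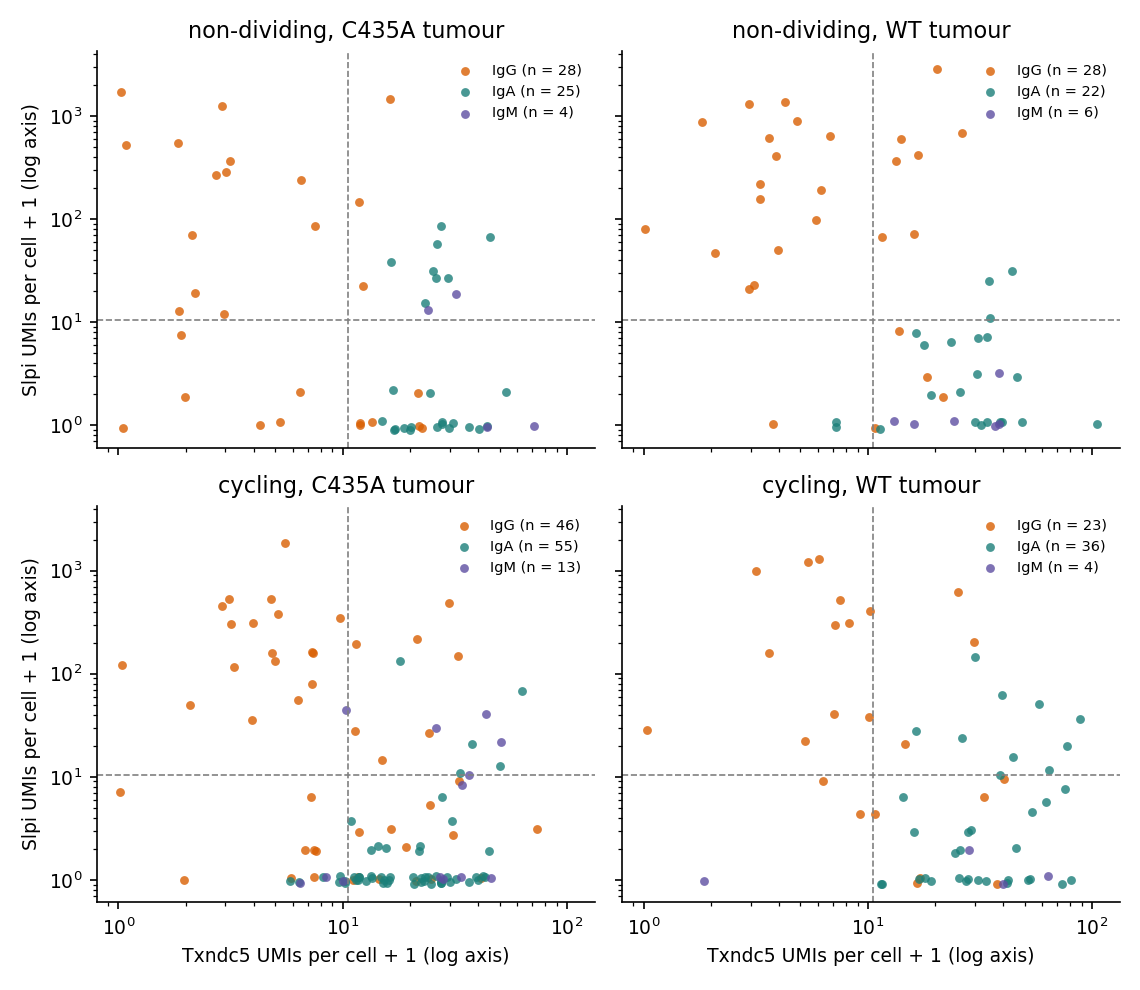
Txndc5 UMIs (x axis, log scale) against Slpi UMIs (y axis, log scale), each plus 1 and jittered to part equal values, 1 point per cell, for non-dividing and cycling cells of each library, coloured by class. Dashed lines mark the limit of 10 UMIs. The upper left field holds IgG cells, 13 and 16 of the non-dividing and 18 and 11 of the cycling cells.

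IgM plasma cells were few, 4 and 7 of the 132 members, and their contrasts are correspondingly loose. IgA over IgM gave 25 higher (1.64%) and 8 lower (0.525%) of 1524 genes over the 132 members, and 20 (1.74%) and 10 (0.871%) of 1148 in the 113 cells. Over the 132, all-UMI scaling gave 39 and 5 and trimmed-mean scaling 92 and 3. IgG over IgM gave 33 (1.75%) and 14 (0.742%) of 1888 genes over the 132, and 12 (1%) and 14 (1.17%) of 1198 in the 113, and the same scalings gave 46 and 7, and 89 and 5, over the 132. Of the 16 named genes of each contrast, 11 and 8 passed in both sets of cells. Over the 132 members IgA cells were higher than IgM cells in Crip1 (4.20 and 4.18) and in Pycard, the adaptor of inflammasomes (3.86 and 3.89), and lower in H2-Q7 (-1.59 and -1.60) and Sel1l (-1.50 and -1.26). IgM cells held only 8 and 17 Crip1 UMIs and 4 and 7 Pycard UMIs. In the C435A tumour library 1 cell gave 87.5% and 75% of these. The Pycard intervals were 2.50 to 5.75 and 2.84 to 5.21. IgG cells were higher than IgM cells in Slpi (4.57 and 7.74, and 5.16 and 10.01 in the 113 cells, where the 6 IgM cells of the WT tumour library held 2 UMIs) and Pycard (3.37 and 2.46), and lower in Txndc5 (-2.74 and -2.11), Jchain (-1.32 and -1.36) and Tnfrsf17 (-1.62 and -2.22).

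The question of the design is whether the plasma cells differed between mice with C435A and wild-type tumours. Over all 132 members, 221 of 6021 genes (3.67%) were higher and 337 (5.6%) lower in the C435A tumour library past 1.5-fold with the interval excluding 0. In the 121 members with at least 10 Jchain UMIs the shares were 3.48% and 3.21% of 4857 genes. In the 113 cells they were 127 (2.94%) and 155 (3.59%) of 4314, and scaling to all UMIs turned these into 204 higher and 102 lower and trimmed-mean scaling into 166 and 123, so the balance of directions differed between scalings. Counting error alone can carry genes with few UMIs past this limit, so these are not counts of genes changed by the tumour genotype. All-UMI scaling moved the median of all genes by 0.10.

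The lowest named genes over the 132 members included macrophage genes that were nearly absent from the 113 cells. Thbs1 was at 6 against 151 UMIs, Spp1 at 104 against 557, Fabp5 at 171 against 789, Ctsk at 120 against 564 and Marco, a macrophage receptor, at 4 against 52. In the 113 cells these 5 genes had between 1 and 6 UMIs in the C435A tumour library and between 2 and 34 in the WT tumour library. Apoe was higher over the 132 (225 against 119 UMIs) and had 10 against 20 in the 113. The members left out of the 113 were the 3 and 8 poor in immunoglobulin and the 4 and 4 that also held Lyz2.

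In the 113 cells the survival receptor Tnfrsf17 was among the higher named genes, with 274 against 149 UMIs and a log2 ratio of 1.1 (0.81 to 1.40). By class its level was 1339 against 681 CPM in IgA cells and 220 against 111 in IgG cells. In the 4 and 6 IgM cells it was 535 against 456 on 13 and 17 UMIs, short of 1.5-fold, while over all cells the number of cells with a UMI was 35 of 57 and 32 of 56. Cd28 was at 0.97 (0.57 to 1.38), with 139 against 83 UMIs in 37 and 37 cells. Of the 17 measured survival genes 4 were higher (Tnfrsf17, Cd28, Bcl2l11 and Cd9) and 1 was lower (Bcl2l1, with 7 against 22 UMIs), with a median of 0.09 against -0.01 over all genes. Of 12 homing genes 4 were higher and 0 lower: Cxcr3 at 1.04 with 51 against 29 UMIs, Itgb7 at 0.75, Selplg at 0.74 and Ly6c2 at 0.59 with 1689 against 1310. Those 12 were the measured ones of 22 listed, and their median was 0.19. Over all genes tested 2.94% were higher and 3.59% lower. No test of either list was made.

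The secretory machinery differed little between the libraries. Of 35 ER chaperone genes 0 were higher and 1 was lower past 1.5-fold, Herpud1, part of the ER degradation complex, at -0.74 (-0.98 to -0.51) with 229 against 447 UMIs, and the median was 0.05. No translocon gene of 24 and no ER to Golgi gene of 24 passed, and 1 of 18 glycosylation genes was lower. Interferon genes, on which the study's target IRF7 acts, were few in these cells: 1 of 16 type I genes was higher (Trim30a, 34 against 22 UMIs) and 0 lower, with a median of 0.08, and 2 of 12 interferon gamma genes were higher, Gbp2 with 20 against 7 UMIs and the chemokine gene Cxcl10 with 75 against 24 in 9 and 6 cells. No MHC class I gene of 14 passed. Over all genes tested 2.94% were higher and 3.59% lower.

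The other named genes higher in the C435A tumour library were Ly6a2 (120 against 39 UMIs, 1.85), Smchd1 (139 against 66, 1.30), Hsd11b1 (49 against 19, 1.59), Snhg8 (40 against 14, 1.74), Fcer1g (92 against 27, 1.99), Ccl5 (59 against 17, 2.02), Ly6k (46 against 10, 2.43) and Mt1 (113 against 47, 1.49). One cell gave 63% of the Ly6k and 59.3% of the Mt1 UMIs, Mt1 was at -1.36 over all 132 members and Fcer1g at -0.27. The level of Ccl5 was at most 5% of that in NK cells, where it is highest, which is the mark used for possible free RNA. The named genes lower in it were Sbno2 (18 against 73 UMIs, -1.79), Lyz2 (55 against 176, -1.45, marked as possible free RNA), Hnrnpd (14 against 44, -1.43), Ppp1r16b (19 against 54, -1.28), mt-Atp6 (27 against 74, -1.23), Tmem176a (128 against 332, -1.15), Cpeb3 (33 against 84, -1.12), Herpud1, Rn18s-rs5 (-0.63) and Cd52, a surface protein gene of lymphocytes (1338 against 2410, -0.62). Tmem176a was found in 30 of 57 and 43 of 56 cells and 1 cell gave at most 15.6% of its UMIs.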

How the data were processed

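The authors deposited UMI counts per gene and barcode. Cell Ranger 7.2.0 wrote the matrices, per the file headers. Per the submitters' processing notes the genome build was GRCm38. The labels' protocols name both BD Rhapsody and the 10x Chromium 3′ V3 kit, so the capture platform is uncertain, and they give a sort of live CD45-positive cells. For the annotation release and the rule for calling cells: not given in the sources used here.

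A floor of 500 UMIs and a ceiling of 20% on mitochondrial UMIs took out 60 and 105 barcodes and left 10313 and 10051, with medians of 3424 and 2798 UMIs. The libraries held 59615672 and 54934397 UMIs. Of 55357 features 52081 matched GENCODE M21, and 432 were immunoglobulin genes, left out of CPM totals. Counts were summed over cells per library. Log2 ratios have exact conditional 95% intervals, shares exact Clopper-Pearson intervals and their differences Newcombe intervals, all for counting error only, since cells are not replicates. Genes needed 20 UMIs, over both libraries for C435A over WT and in each library for contrasts within a library. In a ratio 3 UMIs stood in for a total of 0. Possible free RNA means a level at most 5% of the highest group's. Thinned shares are the expected values over all draws of 1000 UMIs. Doublets were left in, and Scrublet in scanpy 1.11.5 (0.8% per 1000 barcodes) was used for an alternative, as was edgeR 4.0.16 for trimmed-mean (TMM) scaling. The code was tested on simulated data.

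Named were the marker and constant genes, and genes by size of difference: these had to hold 50 UMIs over both libraries and 50 CPM in one for C435A over WT (10 each way by the interval bound nearest 0) or to pass in both libraries for contrasts within a library (8 each way), and up to 4 members of each list with most UMIs and the leading V segments. Other list members were named because they passed, after their values were seen. The members, gene lists and tests were chosen with earlier results of these data known. The IgA over IgG contrast, the restriction to 113 cells and the limit of 10 UMIs for Slpi and Txndc5 were added after the data were seen. A gene of the lists is not reported here by name.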

Additional observations from a re-analysis of the deposited data

Results flagged for a closer look

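Hspa5, the ER chaperone BiP, was lower in IgA than in IgG cells among the non-dividing plasma cells and higher among the cycling plasmablasts, in both libraries. In non-dividing cells the log2 ratio of IgA over IgG was -1.29 (-1.46 to -1.12) in the C435A tumour library and -0.85 (-1.0 to -0.70) in the WT tumour library. In cycling cells it was 0.51 (0.41 to 0.60), with 2520 UMIs in IgA and 1472 in IgG cells, and 0.27 (0.15 to 0.39), with 1488 and 941. Non-dividing IgG cells with at least 10 Txndc5 UMIs held Hspa5 at 2665 and 3203 CPM, against 7943 and 7982 in those with fewer. The value of 3203 includes 1 Ighg1 cell at 17533 CPM. The others were 7 Ighg2c cells at 1980, 2 Ighg3 cells at 1475 and 1 Ighg2b cell at 843. Non-dividing IgA cells with at least 10 Txndc5 UMIs were at 2400 and 3181. With fewer Txndc5 UMIs, Ighg2c cells were at 7188 and 4730 CPM, Ighg2b cells at 8055 and 11638, and Ighg1 cells at 8978 and 8998. The 15 Ighg2c cells of the WT tumour library, at 1980 and 4730 CPM, thus lay on either side of the IgA value of 3181. In cycling IgG cells the split at 10 Txndc5 UMIs gave 2553 against 2660 in the C435A tumour library and 1754 against 4276 in the WT tumour library. Cycling IgA cells with at least 10 Txndc5 UMIs were at 3659 and 3349. The difference between the 2 kinds of cell was not tested, nor was the part of the Txndc5 split or of the IgG gene in it.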

How the results depend on the processing

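The share of plasma cells and the class makeup kept their values within the main interval, except that leaving out plasma cells with markers of other cells turned the share difference to 0.208 points (0.436% against 0.229%, interval 0.0488 to 0.373, excluding 0). The totals of kept barcodes were not changed for that alternative, and its lists hold Epcam and Ly6i, which were higher in plasma cells than in B cells. Of 376 values of the 16 genes named for IgA over IgG under the alternatives, 374 kept their call, 2 lost it (Ly6a without the deepest 5%) and 0 changed sign. Values of genes that fell below the UMI limit in an alternative are not among the 376. The 16 genes were picked for their large differences in these same data, so keeping the call is no independent check. Counts of genes moved more. For C435A over WT in 132 barcodes, 221 higher became 540 at a marker sum of 5, 118 without cells holding markers of other cells, 134 with 50 UMIs per gene and 127 in the 113 cells, and 337 lower became 603, 75, 209 and 155, 143 at a marker sum of 20 and 156 with 10 Jchain UMIs. In the 113 cells, 127 higher became 204 with all-UMI scaling and 78 with 50 UMIs per gene, and 155 lower became 102 and 73, and 75 without other-cell markers. For IgA over IgM, 25 higher became 39 with all-UMI scaling, 92 with TMM, 50 at a marker sum of 5 and 43 without Scrublet doublets, and 8 lower became 5, 3, 58 and 14, 18 with constant genes at 80% and 13 with 10 Jchain UMIs. For IgG over IgM, 33 higher became 89 with TMM, 86 at a marker sum of 5, 9 at 20, 50 without Scrublet doublets, 18 without other-cell markers, 20 without the deepest 5%, 11 with 10 Jchain UMIs and 12 in the 113 cells, and 14 lower became 7 with all-UMI scaling, 5 with TMM, 48 at a marker sum of 5, 25 without Scrublet doublets and 9 without the deepest 5%. TMM moved the median of all genes by 0.49 and 0.32 for IgA over IgM and by 0.43 and 0.30 for IgG over IgM. For IgA over IgG, 50 higher became 77 with all-UMI scaling (against 46 lower, a median shift of 0.12 and 0.13), 25 without other-cell markers and 32 with 50 UMIs per gene, and 64 lower became 39 without other-cell markers. The ER chaperone list had 1 higher and 7 to 9 lower under each scaling. Signs reversed for C435A over WT in 132 barcodes at a marker sum of 20 (Spp1 2.03, Mt2 0.0061, Fabp5 0.54, Atp6v0d2 1.07), with 10 Jchain UMIs (Spp1 1.89), without other-cell markers (Mt2 1.22), in the 113 cells (Mt2 0.15, Apoe -0.77) and without the deepest 5% (Apoe -2.88). They reversed at a marker sum of 5 in the C435A tumour library for IgA over IgM (Anxa2 -0.28, Sel1l 0.030, Prdx4 0.32) and IgG over IgM (Jchain 0.91, Tnfrsf17 0.56), and without other-cell markers in the WT tumour library for IgA over IgM (Sel1l 0.11). The cause was not tested. No paired analysis was possible because each group has 1 library and the labels give no replicate numbers. The small number of cells limits every value, and IgM cells most.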

Other observations

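V segment use was broad. A heavy V segment could be called in 51 of 57 and 52 of 56 cells, spread over 24 and 29 segments, of which 12 were shared (50% of those of the C435A tumour library and 41.4% of those of the WT tumour library). Ighv1-81 was called most, in 7 and 8 cells. In the C435A tumour library 6 of these 7 were IgA cells and 1 was an IgG cell, and in the WT tumour library 3 were IgA and 5 IgG cells. A shared segment is not a clone, since no junction sequence was read.

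Light chains were nearly all kappa by their constant genes. Lambda constant genes led in 0 of 57 and 4 of 56 cells, 3 of them IgA and 1 IgG. The light V segment calls went against this: Iglv1, a lambda segment, had most light V UMIs in 27 of 47 and 34 of 50 called cells, although over 95% of light constant UMIs were Igkc in 26 of those 27 and 30 of those 34. Light V calls were therefore not used.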
